A study of Mus musculus with 2 samples.

Results

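Ly6c2-high monocytes are the recently recruited blood monocytes of a tumour, and 310 of the 11552 cells that passed the cell filter in these mouse squamous cell carcinomas had that transcript profile. A barcode counted as a cell with 1000 or more gene UMIs (unique molecular identifiers, each standing for 1 captured transcript), 500 or more detected genes and no more than 10% of UMIs from mitochondrial genes. Monocytes were chosen by their measured UMIs: a cell counted as one when it held at least 3 UMIs of Ly6c2 and at least 1 of Plac8, no UMI of Siglech (plasmacytoid dendritic cells), Cd3e (T cells) or Ncr1 (NK cells), under 0.5% of its UMIs from S100a8 and S100a9 (neutrophils) and under 0.2% from C1qa, C1qb and C1qc (macrophages). These gate genes therefore describe the members and support nothing about them. All samples came from 1 group: untreated subcutaneous tumours in FVB mice, grown by injecting the carcinoma lines CIT6, marked with YFP, and CIT9, marked with RFP, together as a mosaic. Tumour sections were printed with light-directed oligonucleotide codes (ZipSeq), dissociated, sorted for the leukocyte surface protein CD45 and sequenced as 10x 3' v3 droplets. The samples are replicate 1 and replicate 3 of the labels, which do not say whether they were separate animals. With the tumour as a block in the fit, p-values measure only how unevenly differences between cell classes held across these samples. Both lines are established tumour cell lines, and the hosts carried no other treatment or allele in the labels.

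In the mouse, classical monocytes leave the bone marrow through the chemokine receptor Ccr2, carry Ly6C on their surface and use adhesion molecules such as integrins to enter inflamed tissue. Inside a tumour they can become macrophages or dendritic-like cells, losing Ly6C and gaining MHC class II, complement C1q and scavenger receptors on the way. Interferons induce antiviral and antigen-presentation genes in them. Ly6c2 lies on chromosome 15 from 75108158 to 75111970 on the minus strand, and Plac8 on chromosome 5 from 100553725 to 100572245 on the minus strand, both protein-coding genes of the GRCm38 build. The longest coding transcripts of Ly6c2 and its neighbour Ly6c1 were identical at 802 of 822 aligned bases, and at 287 of 293 near the 3' end that this chemistry reads. Ly6c1 was counted at 0 and 1.51 CPM in the monocytes of replicates 1 and 3 (CPM: UMIs of a gene per 1000000 gene UMIs of a class), beside 770 and 800 CPM for Ly6c2, and was not tested.

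The monocytes made up 1.14% of cells in replicate 1 (55 of 4818, 95% exact binomial interval 0.861 to 1.48) and 3.79% in replicate 3 (255 of 6734, 3.34 to 4.27). The intervals did not overlap, but they cover counting error only, and a pair of tumours of 1 group carries no test. The limit of 3 Ly6c2 UMIs favours deep cells. With every cell thinned to 3000 UMIs before the gate was applied, 24 cells (0.557%) and 77 cells (1.18%) met it, so the share was higher in replicate 3 at equal depth as well. The median member held 12244 gene UMIs in replicate 1 and 13640 in replicate 3, against 19114 and 23929.5 for macrophages. No member barcode was shared between the libraries, although 9 of all cell barcodes were. At the edge of the gate, 13 members in replicate 1 and 39 in replicate 3 held exactly 3 Ly6c2 UMIs, and 11 and 62 cells with 2 UMIs met every other limit. Those just outside held Ccr2 at 934 and 743 CPM, and those just inside at 1336 and 699 CPM. Only 2 and 3 members lay between 0.1% and 0.2% C1q, and 3 and 7 cells between 0.2% and 0.3%.

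The label was checked against markers that the rule did not use. All 9 further markers of classical monocytes (among them Ccr2, Chil3, F13a1, Vcan, Ms4a4c, Ifitm6, Hp and F10) were above 10 CPM in both tumours, and together reached 3324 and 2340 CPM. The same markers summed to 2482 and 2572 CPM in neutrophils, above the monocytes in replicate 3, and to 468 and 551 CPM in macrophages. Of 15 macrophage markers outside the gate, 13 and 11 were over 10 CPM in monocytes, and their sum of 6315 and 5148 CPM lay between that in macrophages (38597 and 26548 CPM) and that in cDC2 (1144 and 1012 CPM). Some markers of other lineages were at 0. Of NK cells, Gzma and Klra8 were at 0 in both tumours, and Klrb1c and Klre1 in replicate 1 only. Jchain of plasma cells was at 0 in both tumours, but Cd79b of B cells was at 12.2 and 9.59 CPM. Cpa3, Mcpt4, Mcpt8 and Ms4a2 of mast cells and basophils and the keratin Krt14 were at 0 in both tumours. Epx and Prg2 of eosinophils and the keratins Krt5 and Krt6a had no UMI in any of the 6 classes, so they tell no class apart. Epcam and Pecam1 of the tumour and stromal list were at 25.9 and 24.5 CPM in replicate 1. In replicate 3 they were at 1.26 and 9.33 CPM. Summed outside the gate, neutrophil markers came to 68 and 80.7 CPM and T cell markers to 63.9 and 8.58 CPM. Conventional dendritic cell markers came to 25.9 and 23 CPM, and tumour and stromal markers to 53.1 and 23.2 CPM. The sums were larger for plasmacytoid dendritic cell markers (107 and 77.2 CPM, with 1 of 6 over 10 CPM) and non-classical monocyte markers (370 and 300 CPM). None of the 55 and none of the 255 monocytes held a UMI of YFP or RFP, which allows a share of cells with such a UMI of up to 5.45% and 1.18% (3 cells). Macrophages held such a UMI in 92 of 2591 cells (3.55%) and 27 of 2622 cells (1.03%), and T cells, a background class that does not carry the reporters, in 2 of 351 (0.570%) and 1 of 769 (0.130%), at median depths of 4407 and 6688 UMIs. Macrophages were deeper than monocytes. Thinned to 1000 UMIs, 7 and 1 macrophages and no monocyte held a reporter UMI, so no difference could be seen at equal depth. The expression of these markers in each class is plotted by tumour.

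**Figure D1:**
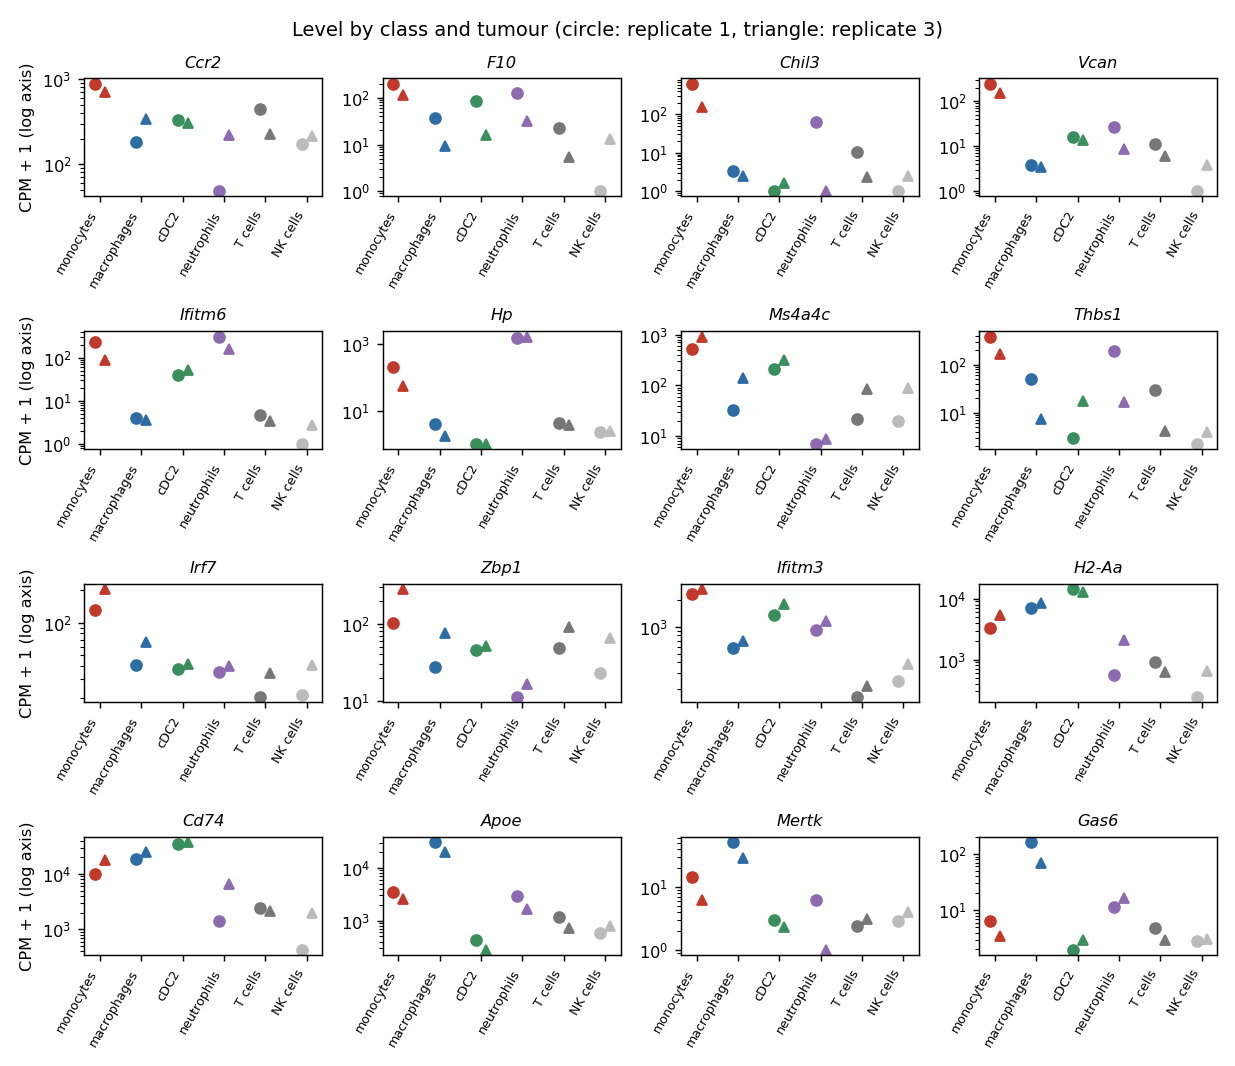
CPM plus 1 on a log axis for 16 genes in 6 gated cell classes, with a circle for replicate 1 and a triangle for replicate 3. Chil3 and Vcan were highest in the monocytes of both tumours, Hp was highest in neutrophils, and Apoe, Mertk and Gas6 were highest in macrophages.

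Monocytes were first compared with the C1q-rich macrophages of the same tumours (2591 and 2622 cells with at least 0.5% C1q and no Ly6c2). Against these, most blood-monocyte markers were higher in monocytes, as were 8 of 16 homing genes and 10 of 21 type I interferon-stimulated genes, and most macrophage markers and 12 of 18 lipid and lysosome genes were lower. Of 10392 genes tested with edgeR's quasi-likelihood test on sums per tumour and class, 573 were higher in monocytes (5.51% of genes tested) and 568 were lower (5.47%) at a Benjamini-Hochberg adjusted p under 0.05. Of these, 568 and 568 had the same sign in both tumours. Without the tumour as a block the counts were 168 and 157. Both classes were gated on transcripts, so the other genes that vary with Ly6c2 or C1q across cells are not free of the gate. When the UMIs of each cell were split at random, one part for the gate and the other for the test, 447 and 523 genes were called, among them 378 of the 573 and 374 of the 568.

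Classical monocyte markers led the higher genes. Of 9 listed markers outside the gate, 8 were higher and none lower, with a median log2 difference of 5.61, against -0.02 over all genes tested. Chil3, a secreted chitinase-like protein, was at 629 and 151 CPM in the monocytes of replicates 1 and 3 and at 2.38 and 1.43 CPM in macrophages. Its levels were higher in the monocytes of replicate 1 and did not overlap between the classes, and the log2 difference was 7.34 ± 0.475 (SE, adjusted p = 1.21e-05 by edgeR). Vcan, the matrix proteoglycan versican, was at 242 and 151 CPM against 2.71 and 2.50 CPM (6.14 ± 0.316, adjusted p = 4.09e-06 by edgeR). These genes were near 0 in macrophages of both tumours. Ifitm6 (5.61), Hp (5.98), Ms4a4c (3.34) and F10 (3.14) were also higher on the log2 scale. Ccr2, the receptor for Ccl2 that draws monocytes from marrow, was at 879 and 704 CPM against 179 and 335 CPM. Macrophages held transcript of it too, and its log2 difference was 1.61 ± 0.411 (adjusted p = 0.0288 by edgeR). The call was lost after the subtraction of 10% free RNA (adjusted p = 0.0840) and without the tumour block (adjusted p = 0.0966). F13a1, the transglutaminase of clotting that resident-type macrophages also express, had a log2 difference of 0.76 that did not pass (adjusted p = 0.462 by edgeR).

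Of 16 listed homing and adhesion genes, 8 passed as higher, Ccr2 among them, 1 passed as lower and 7 did not pass, with a median log2 difference of 0.94. The integrin subunit Itgb7 was at 83 and 85.3 CPM in monocytes against 6.0 and 11.3 CPM in macrophages (3.26 ± 0.258, adjusted p = 3.31e-05 by edgeR), Cd44, a receptor for hyaluronan, at 781 and 518 against 130 and 138 CPM, and Itgal, the alpha chain of LFA-1, at 87.1 and 78.5 against 30.1 and 14.9 CPM. Each pair of classes stayed apart in both tumours. Emb, Itgb2 and Itga4 passed as higher too. Cx3cr1, the fractalkine receptor of patrolling monocytes and tissue macrophages, was lower at 118 and 116 against 535 and 513 CPM (-2.22 ± 0.376, adjusted p = 0.00345 by edgeR), and did not pass after the free RNA subtraction (adjusted p = 0.0712). Of 9 genes of non-classical monocytes tested, Adgre4 and Cd300e were higher, Cx3cr1 was lower and 6 did not pass.

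Genes of matrix and clotting followed in part: 4 of 12 were higher (Vcan, Thbs1, F10 and F5) and 1 was lower. Thbs1, thrombospondin, was at 385 and 165 CPM in monocytes and at 50.3 and 6.44 CPM in macrophages, with no overlap (3.73 ± 0.648, adjusted p = 0.00393 by edgeR). DESeq2 did not call it (adjusted p = 0.104), nor did edgeR without the tumour block or after the free RNA subtraction (adjusted p = 0.174 and 0.0654). Fn1, fibronectin, was at 2234 and 1173 against 557 and 326 CPM and did not pass (adjusted p = 0.183 by edgeR). Among 14 inflammatory genes, Clec4e and Clec4d, C-type lectins for microbial and dying-cell ligands, Il18 and Ptgs2 were higher and none was lower. Clec4e was at 230 and 239 CPM against 23.5 and 23 CPM (3.31 ± 0.449, adjusted p = 0.000899 by edgeR). Il1b was at 771 and 1394 against 586 and 420 CPM and did not pass (adjusted p = 0.303 by edgeR). Of 14 suppressive and hypoxia genes, Trem1, Adam8 and Hif1a passed as higher, and all 3 calls were lost without the tumour block (adjusted p = 0.124, 0.231 and 0.274 by edgeR), while Arg1, the arginine-degrading enzyme, was nearly level at 582 and 254 against 632 and 226 CPM (log2 difference -0.07, adjusted p = 0.98 by edgeR).

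Interferon-stimulated genes made up another block. Of 21 type I interferon-stimulated genes, 10 were higher in monocytes and none was lower, with a median log2 difference of 1.45. Irf7, the transcription factor that amplifies interferon production, was at 132 and 203 CPM in monocytes against 39.9 and 65.2 CPM (1.65 ± 0.198, adjusted p = 0.000494 by edgeR). Ifitm3, a membrane protein that blocks viral entry, was at 2351 and 2609 against 578 and 697 CPM (1.93 ± 0.234, adjusted p = 0.000504 by edgeR). Zbp1, a sensor of Z-form nucleic acid, was at 101 and 278 against 26.5 and 75 CPM (1.90 ± 0.257, adjusted p = 0.00089 by edgeR), so the monocytes of each tumour exceeded the macrophages of both. Without the tumour block Zbp1 did not pass (adjusted p = 0.132). Isg20, Oasl2, Ifi204, Ifi205, Xaf1, Cmpk2 and Oas3 also passed. In replicate 1 Isg20, Oas3 and Cmpk2 were close to macrophage levels (8.16 against 6.16, 6.80 against 5.21 and 4.08 against 3.89 CPM) and Ifi205 had no UMI in monocytes (0 against 0.716 CPM), while all 4 were higher in replicate 3 (34.1 against 7.01, 29.5 against 6.47, 21.2 against 3.89, and 9.59 against 1.34 CPM). The interferon gamma list gave less: Irgm1, Gbp4 and Socs1 were higher, Il18bp was lower and 12 of 16 did not pass, among them Cxcl9 (170 and 442 against 107 and 223 CPM) and Cxcl10 (101 and 397 against 88.9 and 170 CPM). Gbp4 was lower in the monocytes of replicate 1 (log2 difference -0.26) and higher in those of replicate 3 (1.47).

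The interferon response element, to which factors of the Irf and Stat families bind, holds a repeat of GAAA spaced by a pair of bases. The pattern GAAANNGAAA was searched on both strands in RefSeq promoter windows of GRCm38.p6, each reaching from 250 bases before to 50 after a gene's start. It was found in 1131 of 32851 windows (3.44%), with the windows of 1 chromosome left out. This share is per window, while a listed gene counted when any of its windows held the pattern. Of the 21 listed genes 16 had a window, and 8 held the pattern. Among the 10 that were higher in monocytes, 8 had a window and 3 held it. The other listed genes that held it, Ifit1, Ifit3, Isg15, Rsad2 and Stat2, did not pass as higher. The pattern was thus not particular to the raised genes. These 3 are shown as examples, with the pattern in capitals and 10 bases on either side, read along the gene's strand.
Ifi205: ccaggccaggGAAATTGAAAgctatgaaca
Oas3: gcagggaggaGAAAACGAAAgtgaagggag
Ifitm3: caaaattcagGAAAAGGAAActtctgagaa
The Ifi205 site lies at chr1:174031870-174031899, the Oas3 site at chr5:120777715-120777744 and the Ifitm3 site at chr7:141010723-141010752, all on the minus strand. Ifi205 and Ifitm3 hold the pattern at 2 positions in their windows and Oas3 at 1, and the most upstream is shown. It began 134 bases before the start of Ifi205, 75 before that of Oas3, and at base 3 of the transcript of Ifitm3. A match describes these letters and no factor's binding was measured here.

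Of 11 MHC class II presentation genes only Lgmn, a lysosomal protease, passed, and it was lower. H2-Aa, a class II alpha chain, was at 3336 and 5408 CPM in monocytes against 7031 and 8576 CPM in macrophages (-0.90 ± 0.368, adjusted p = 0.144 by edgeR). Among 16 chemokine ligands, Ccl24 was higher and Ccl8 and Pf4 were lower. Ccl8, a ligand for several CC receptors, was at 15 and 23.5 CPM against 874 and 1226 CPM, a log2 difference of -5.85 ± 0.400 (adjusted p = 1.36e-05 by edgeR) that separated the classes in both tumours.

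Many listed genes of mature macrophages were among the lower genes. Of 15 macrophage markers tested outside the gate, 12 were lower and none higher (median log2 difference -2.30). Of 17 genes of maturation and scavenging, 9 were lower and 1, Timd4, higher, and of 18 lipid and lysosome genes 12 were lower and none higher. Gas6, the ligand that links dying cells to the receptors Mertk and Axl, was at 5.44 and 2.52 CPM against 160 and 68 CPM (-4.86 ± 0.297, adjusted p = 1.17e-05 by edgeR). Apoe, a lipid carrier, was at 3408 and 2553 against 30336 and 19724 CPM (-3.08 ± 0.340, adjusted p = 0.000294 by edgeR), and Abca1, which exports cholesterol, at 73.5 and 27 against 331 and 140 CPM. Monocytes lay under macrophages in both tumours for each. Folr2, Vcam1, Cd81, Cd63, Mertk, Trem2, Stab1 and the cathepsins Ctsb, Ctsd, Ctsk and Ctsl were lower too. Adgre1, which encodes F4/80, was at 101 and 93.6 against 230 and 278 CPM (-1.47 ± 0.319, adjusted p = 0.0134 by edgeR), a call that DESeq2 did not make (adjusted p = 0.0959) and that edgeR did not make without the tumour block (adjusted p = 0.177). Maf, a transcription factor of macrophages, was at 102 and 62.1 against 272 and 161 CPM and was lower (-1.42 ± 0.25, adjusted p = 0.00424 by edgeR).

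Other regulators and housekeeping groups completed the comparison. Of 21 myeloid transcription factors, Irf5, Irf4 and Cebpb were higher and Maf was lower, and all 4 calls were lost without the tumour block (adjusted p = 0.265, 0.121, 0.131 and 0.115 by edgeR). C3 alone passed of 9 complement genes, Nod2 alone of 15 Fc and pattern-recognition receptors, and Il17ra (higher) and Tgfbr2 (lower) of 14 cytokine receptors. None of 14 dissociation stress genes passed. Cell cycle genes were lower for 6 of 18 (Tk1, Tyms, Mcm3, Mcm6, Stmn1 and Birc5) and higher for none. Tk1, thymidine kinase of dividing cells, was at 4.08 and 8.83 CPM against 20.9 and 57.8 CPM (-2.60 ± 0.363, adjusted p = 0.0011 by edgeR), a call lost without the tumour block (adjusted p = 0.0936). By size, the genes outside the lists that were most raised included Dmkn, a secreted epithelial-type protein (146 and 77.7 against 0.426 and 2.77 CPM), Slpi, a protease inhibitor (103 and 42.4 against 3.25 and 2.08 CPM), Mmp8, a collagenase (88.4 and 23.2 against 6.29 and 0.675 CPM), and Ly6i, a Ly6 family member (35.4 and 125 against 2.38 and 11.1 CPM). The most lowered included Gpr34, Fcrls, Rapsn and Cbr2. The plot of listed genes shows the fold changes group by group.

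**Figure D2:**
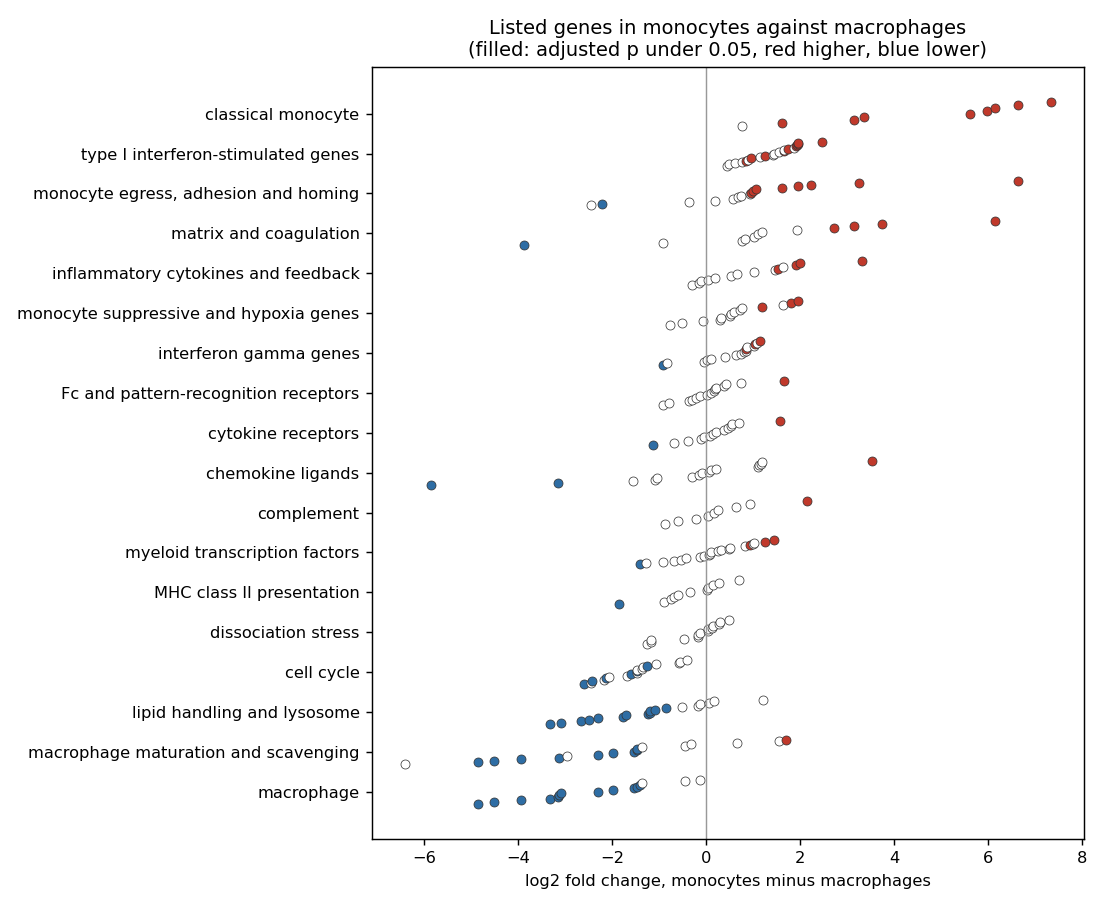
Log2 fold change of monocytes minus macrophages for each gene tested in 18 lists, 1 point per gene, filled where the edgeR adjusted p was under 0.05. Filled points lie to the right for classical monocyte and type I interferon-stimulated genes, and to the left for cell cycle, lipid and lysosome and macrophage genes. In the maturation list they lie to the left except Timd4.

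MHC class II varied widely among the monocytes themselves. The 8 genes H2-Aa, H2-Ab1, H2-Eb1, Cd74, H2-DMa, H2-DMb1, H2-DMb2 and H2-Oa took from 0.0113% to 4.97% of a cell's UMIs in replicate 1 (median 0.329%) and from 0.0298% to 10.3% in replicate 3 (median 1.95%). In replicate 1, 25 cells were under 0.25% and 17 at 2% or more, with 13 between. In replicate 3 these counts were 54, 126 and 75. Cells between 0.25% and 2% thus made up 23.6% of monocytes in replicate 1 and 29.4% in replicate 3. Macrophages also spread widely, from 0 to 11.2% in replicate 1 and from 0.0294% to 17.6% in replicate 3, with 325 of 2591 and 244 of 2622 cells under 0.25%, so the spread was not particular to monocytes. In Cd209a dendritic cells the lowest share was 1.75% in replicate 1 and 1.93% in replicate 3. For description, and after these values had been seen, the monocytes were divided at 1%. The class II-low cells numbered 33 of 55 in replicate 1 (60%, exact interval 45.9 to 73.0) and 97 of 255 in replicate 3 (38.0%, 32.1 to 44.3). At a division of 0.5% they were 50.9% and 29.4%, and at 2% they were 69.1% and 50.6%, each time higher in replicate 1.

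**Figure D3:**
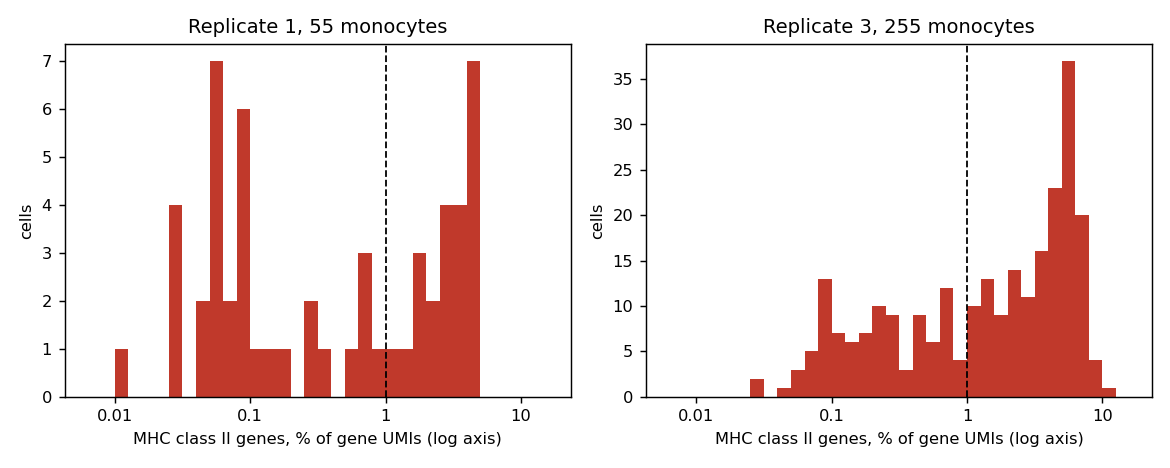
Histogram of the share of a monocyte's gene UMIs from 8 MHC class II genes (log axis) against the number of cells, for 55 monocytes of replicate 1 and 255 of replicate 3, with a dashed line at 1%. Cells under 0.25% number 25 and 54, cells of 2% or more 17 and 126, and 13 and 75 cells lie between.

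The class II-low cells held more of several blood-monocyte transcripts. Among 3166 genes with at least 50 CPM outside the gate and the dividing genes, 52 were at least 2-fold higher in class II-low cells in both tumours (1.64%) and 28 at least 2-fold higher in class II-high cells (0.884%), with more than 3 UMIs in the higher cells of each tumour. No test was run, because the division was made on these cells after their values were seen. Of 9 classical monocyte markers, 6 were among the 52 (Chil3, Ifitm6, Hp, F13a1 and Vcan among them) and none among the 28. Ifitm6, an interferon-inducible transmembrane family member of marrow monocytes, was at 440 and 227 CPM in the class II-low cells of replicates 1 and 3 and at 16.3 and 19.6 CPM in the class II-high cells. Hp, the haemoglobin scavenger haptoglobin, was at 372 and 130 against 19.0 and 17.4 CPM. For both genes the class II-high cells of each tumour lay under the class II-low cells of both. Thbs1 was at 711 and 391 against 62.3 and 58.9 CPM, Vcan at 388 and 369 against 97.5 and 48.9 CPM, and F13a1 at 571 and 267 against 138 and 52.3 CPM. Cd44, Clec4d, Clec4e, Adam8, Wfdc17, Ccl6, Ccl9, Dmkn, Mmp8 and Slpi were in the same set. Chil3 was at 987 and 258 against 274 and 101 CPM, so its class II-low level in replicate 3 was below its class II-high level in replicate 1.

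The class II-high cells held more transcript of some macrophage markers. Of 11 macrophage markers at this level, Axl, Cd81 and Pf4 were among the 28 and none among the 52. Axl, a receptor for Gas6, was at 192 and 148 CPM in class II-high cells against 38.3 and 38.7 CPM. Ly6a, the interferon-responsive surface protein Sca-1, was at 363 and 925 against 73.8 and 189 CPM, and Spp1, osteopontin, at 1584 and 1370 against 386 and 547 CPM. Bcl2a1b, a survival factor of the Bcl2 family, was at 661 and 440 against 123 and 141 CPM. The levels of these 4 genes in each tumour were higher in the class II-high cells. Ciita, the master regulator of class II genes, Pltp and Mgl2 were also in the set. Chemokine ligands went both ways: of 13, Ccl12, Cxcl16 and Pf4 were among the 28, and Ccl6 and Ccl9 among the 52. Ccl2 was in neither set, at 279 and 781 CPM in class II-high cells against 1118 and 1209 CPM in class II-low cells. Ccr2 hardly differed, at 859 and 708 CPM in class II-high cells and 900 and 695 CPM in class II-low cells. Ly6c2 itself was at a median of 6 and 7 UMIs in class II-high cells and 7 and 7 in class II-low cells. Relative to all UMIs it was lower in class II-high cells, at 439 and 748 CPM against 1105 and 909 CPM, and so was Plac8, at 528 and 1131 against 1605 and 1673 CPM. The class II-high cells were deeper, with medians of 14171 and 15703 UMIs against 11273 and 11124. The part of depth in the division was not tested.

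**Figure D4:**
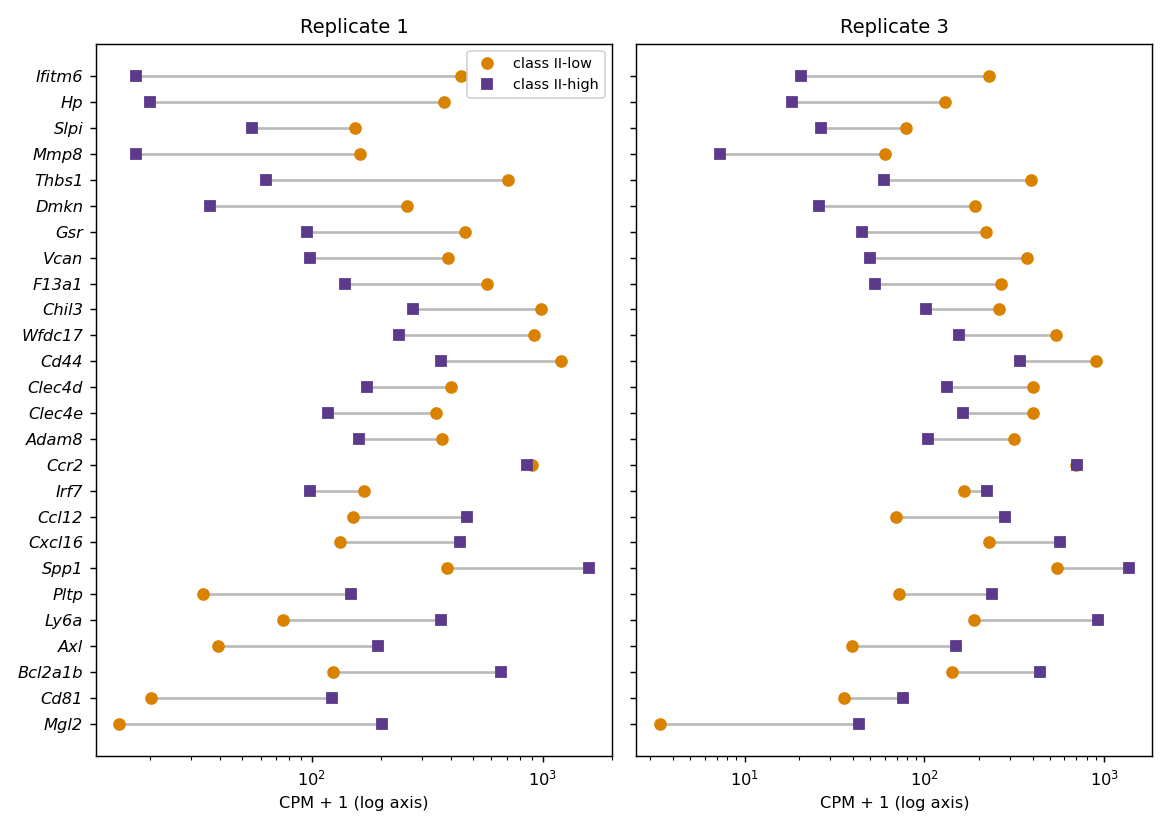
CPM plus 1 on a log axis for 26 genes in the class II-low (circles) and class II-high (squares) monocytes of replicate 1 and replicate 3. Blood-monocyte genes such as Ifitm6, Hp and Thbs1 lie higher in class II-low cells and Axl, Ly6a and Spp1 lie higher in class II-high cells of both tumours, while Ccr2 lies at the same place in both.

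For description only, since Ly6c2 chose the cells, the members were also divided by it. In cells with 3 to 4, 5 to 9 and 10 or more Ly6c2 UMIs, the summed level of type I interferon-stimulated genes was 3168, 4272 and 4516 CPM in replicate 1 and 4283, 5975 and 7430 CPM in replicate 3. The order was the same in both tumours. The summed class II genes had no common order, at 29179, 14856 and 17931 CPM in replicate 1 and 29815, 35899 and 36759 CPM in replicate 3. The median depths of these bins were 12674, 10676.5 and 13393 UMIs in replicate 1 and 12818.5, 14074 and 14065 UMIs in replicate 3, and their part was not tested.

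Tumours also differed within the class. Cells of replicate 1 held more Chil3 (629 against 151 CPM), Fn1 (2234 against 1173 CPM) and Thbs1 (385 against 165 CPM), and cells of replicate 3 held more Cxcl9 (442 against 170 CPM), Zbp1 (278 against 101 CPM) and Cxcl10 (397 against 101 CPM). Each tumour is a single sample, so these values carry no test. The larger share of class II-low cells in replicate 1 stands beside the higher Chil3 and Thbs1 there, and its part in them was not tested.

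Compared with Cd209a dendritic cells (cDC2, 47 and 65 cells), which present antigen to CD4 T cells, monocytes held more of Ccl2, Ccl7 and Ccl12 and of 7 of 15 macrophage markers, and less of most class II and dendritic cell genes. Of 10392 genes, 481 were higher in monocytes (4.63%) and 526 lower (5.06%), and 153 and 205 without the tumour block. All 6 dendritic cell markers tested outside the gate were lower (Dpp4, Zbtb46, Kmo, Ccr7, Ffar2 and Flt3), 7 of 15 macrophage markers were higher and none lower, and 6 of 9 classical markers were higher. Zbtb46, the transcription factor of conventional dendritic cells, was at 1.36 and 0.505 CPM against 23.6 and 23.4 CPM (-5.21 ± 0.588, adjusted p = 0.000688 by edgeR). Asgr2, a galactose-binding lectin, was at 2.72 and 4.29 against 204 and 326 CPM (-6.37 ± 0.298, adjusted p = 5.96e-06 by edgeR). The dendritic cells stood well above the monocytes of both tumours for each.

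Of 16 chemokine ligands, 5 were higher than in cDC2 (Ccl2, Ccl7, Ccl12, Ccl5 and Pf4), Ccl17 was lower (-5.58) and 10 did not pass. Ccl2, the ligand of Ccr2, was at 697 and 918 CPM against 30.5 and 75.2 CPM (3.96 ± 0.401, adjusted p = 0.000348 by edgeR), and Ccl7 at 295 and 252 against 1.97 and 14.5 CPM (4.94 ± 0.548, adjusted p = 0.000472 by edgeR). Neither overlapped between the classes. Of 9 complement genes, 4 were higher (C3, C5ar1, C3ar1 and Itgam), 4 did not pass, and Itgax, a complement receptor chain, was lower at 29.9 and 40.9 against 203 and 154 CPM (-2.25 ± 0.283, adjusted p = 0.000836 by edgeR). Complement C3 was at 212 and 206 against 7.87 and 5.06 CPM, and the anaphylatoxin receptor C5ar1 at 269 and 245 against 9.84 and 17.1 CPM. Of 15 Fc and pattern-recognition receptors 7 were higher and none lower, and of 18 lipid and lysosome genes 8 were higher and none lower. Of 11 class II genes 7 were lower and Lgmn was higher. H2-Aa was at 3336 and 5408 against 14126 and 12919 CPM (-1.80 ± 0.377, adjusted p = 0.0125 by edgeR), a call lost after the free RNA subtraction (adjusted p = 0.417) and without the tumour block (adjusted p = 0.0788). Of 21 type I interferon-stimulated genes, 5 passed as higher (Irf7, Ifi204, Zbp1, Oasl2 and Xaf1) and none as lower, and 7 of 18 cell cycle genes were lower. Arg1 and Cxcl9 passed here (adjusted p = 0.0440 and 0.0126 by edgeR), and neither did after the free RNA subtraction (adjusted p = 0.129 and 0.0940).

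Neutrophils are the other blood-borne myeloid cells of the tumours, and of the monocyte markers some were higher in monocytes and some in neutrophils. The neutrophil sum of replicate 3 held only 35 cells and 128718 UMIs, against 351 cells in replicate 1, and the median log2 difference of all 10392 genes was 0.22 in this comparison. In monocytes 1343 genes were higher (12.9%) and 1601 lower (15.4%), and 1440 of the 1601 had the same sign in both tumours. All 7 neutrophil markers tested outside the gate were lower. Cxcr2, the receptor for neutrophil-attracting chemokines, was at 1.36 and 1.77 CPM in monocytes against 769 and 839 CPM. Of the 9 classical monocyte markers, Ms4a4c, Vcan, Ccr2 and Chil3 were higher in monocytes, while 3 were lower, Hp and Ifitm6 among them. Hp was at 195 and 53.2 CPM against 1524 and 1639 CPM (-4.45 ± 0.390, adjusted p = 3.9e-05 by edgeR). The log2 differences include edgeR's scaling between sums (TMM), and the printed CPM do not. In replicate 1 the scaling factor was 0.592 for neutrophils and 1.08 for monocytes. Log2 differences there thus lie further toward neutrophils than the CPM do.

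Inflammatory genes were lower and class II genes higher in monocytes than in neutrophils. Of 14 inflammatory genes 12 were lower and none higher. Il1b, the interleukin 1 beta precursor, was at 771 and 1394 CPM against 10271 and 12314 CPM (-3.95 ± 0.642, adjusted p = 0.00118 by edgeR), and Nfkbia, a feedback inhibitor of NF-kappaB, at 601 and 834 against 3113 and 4288 CPM. Neutrophils of both tumours lay above all monocyte values. Of 16 chemokine ligands 8 were lower, among them Cxcl2, which draws neutrophils, and 3 were higher (Ccl2, Ccl7 and Ccl5). Of 11 class II genes 8 were higher and none lower, with H2-DMa at 520 and 739 against 45.5 and 194 CPM (2.29 ± 0.411, adjusted p = 0.00216 by edgeR). Of 21 type I interferon-stimulated genes 5 were higher (Zbp1, Ifi204, Irf7, Ifi27l2a and Ifitm3) and 3 lower (Isg20, Oasl2 and Isg15).

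The spatial codes played no part in the gate. The study printed them over YFP-positive, RFP-positive and mixed regions, but the labels do not say which code stands for which region. In replicate 1 monocytes were skewed to 1 code. ZC1 gave 58.4% of the code UMIs of monocytes against 35.3% of those of macrophages, ZC5 gave 24.9% against 39.1% and ZC2 16.7% against 25.6%. ZC1 was the largest code in 50 of 55 monocytes (90.9%) and in 750 of 2591 macrophages (28.9%). Setting each cell's ZC1 UMIs against its ZC1 and ZC5 UMIs together, 53 of 55 monocytes (96.4%, exact interval 87.5 to 99.6) lay above the median of all cells, against 36.9% of macrophages (35.03 to 38.8), 59.6% of cDC2, 67.2% of neutrophils, 66.7% of T cells and 72.2% of NK cells. Monocytes thus had the highest share of the 6 classes in that tumour, and their interval lay above those of the others. The median ratio was 0.475 over all cells with at least 10 such UMIs, 0.672 in monocytes and 0.427 in macrophages. Monocytes of replicate 1 also held more code UMIs, with a median of 1050 per cell against 481 in macrophages, and the part of code depth in the skew was not tested.

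In replicate 3 the skew was smaller and had another form. ZC1 gave 17.5% of the code UMIs of monocytes against 8.10% of those of macrophages, ZC5 36.4% against 26.4% and ZC6 46.1% against 65.5%. ZC6 was the largest code in 176 of 255 monocytes (69.0%) and 2516 of 2622 macrophages (96.0%). Above the median ratio lay 142 of 253 monocytes with at least 10 UMIs of these codes (56.1%, 49.8 to 62.3) against 1303 of 2606 macrophages (48.1% to 51.9%), and these intervals overlap. At a ratio over 0.5, however, lay 31 of the 253 monocytes (12.3%, 8.48 to 16.9) and 32 of 2606 macrophages (1.23%, 0.841 to 1.73), and the intervals do not overlap. T cells (10.8%), NK cells (19.0%) and neutrophils (9 of 35) also exceeded macrophages there, so the larger share was not particular to monocytes. In both tumours monocytes therefore held a larger part of ZC1 than macrophages. Codes of cells within a tumour come from the same print, so the intervals cover counting error only and no test between tumours was possible. Class II-low and class II-high monocytes had like code shares in replicate 1 (ZC1 58.0% and 58.8%), and in replicate 3 ZC6 gave 50.9% and 44.2%.

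**Figure D5:**
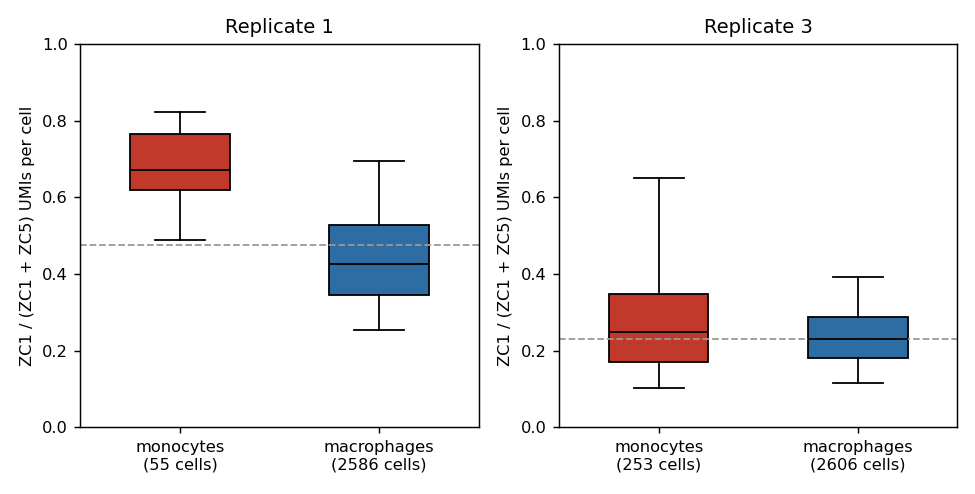
ZC1 UMIs as a part of ZC1 and ZC5 UMIs per cell, for monocytes and macrophages with at least 10 such UMIs in each tumour. Boxes span the quartiles with the median as a line, whiskers reach the 5th and 95th percentiles, and the dashed line is the median of all cells of the tumour. The monocyte box lies above the macrophage box in replicate 1 and overlaps it in replicate 3.

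Within replicate 3 the monocytes on either side of the median ratio of 0.229 could be set side by side (142 and 111 cells), without a test. The ZC1 side here means only a ratio over 0.229. At a ratio over 0.5 lay 31 of 253 monocytes, so most cells of the ZC1 side held no more ZC1 than ZC5. ZC6 played no part in the ratio and was the largest code in 176 of 255 monocytes. Vcan was at 206 CPM on the ZC1 side and 80.4 CPM on the ZC5 side, and Ccl24 at 101 and 29.5 CPM. Cxcl9, the chemokine for Cxcr3 on T cells, was at 293 and 637 CPM, Irf7 at 166 and 252 CPM and Ifit3 at 39.2 and 73.5 CPM. Ccr2, at 732 and 669 CPM, and Adgre1, at 93.4 and 93.7 CPM, hardly differed. Replicate 1 had only 2 monocytes on the ZC5 side, so none of these could be compared between tumours.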

How the data were processed

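The authors deposited unfiltered matrices of UMI counts, whole numbers that were not normalised, for 6794880 barcodes, 31055 genes and 3 codes per sample. Cell Ranger 4.0 and the mm10 build are named in the submitters' processing notes. The annotation is not given in the sources used here. Gene UMIs totalled 89040909 in replicate 1 and 170328781 in replicate 3. Members, gene lists and tests were chosen with earlier results of these data known. Macrophages, cDC2 (Cd209a at least 2 UMIs), neutrophils (S100a8 and S100a9 at least 0.5%, Csf3r at least 1), T cells (Cd3e at least 2) and NK cells (Ncr1 at least 1) were gated likewise. Counts were summed per tumour and class. The 12 sums entered 1 fit with edgeR 4.0.16 (limma 3.58.1, R 4.3.3): TMM, filterByExpr, quasi-likelihood F-test, the tumour as a block, Benjamini-Hochberg adjustment over all genes tested, threshold 0.05. Gate genes, Ly6c1, YFP and RFP were not tested. The block rests on the shared tissue, as both classes of a comparison came from the same tumours, and their differences between tumours correlated across genes at 0.378 for monocytes and macrophages, 0.139 for cDC2 and 0.084 for neutrophils. Standard errors were taken as the log2 difference over the root of F. The test was also run on counts simulated from the fit's own means and spread, which cannot check the gates or the choice of tumours. Scrublet's own threshold marked 0 cells, so doublets were not removed, and an alternative dropped the highest scores (0.8% per 1000 cells). Another subtracted 10% of each sum as free RNA, with the profile of barcodes under 100 UMIs, an assumed share. Named genes were the 10 largest called changes per direction at 50 CPM or more with 1 sign in both tumours, up to 4 called genes per list by adjusted p, and 16 fixed genes. Genes outside this rule that are named were chosen after their values were seen. DESeq2 1.42.0 served as an alternative. Cells were handled in Python 3.11.15 with scanpy 1.11.5, pandas 2.3.3, numpy 2.4.6 and scipy 1.17.1, and plots drawn with matplotlib 3.10.9. Some listed genes are counted but not reported here by name. Gene positions are from GENCODE and promoter windows from RefSeq, both on the mm10 assembly.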

Additional observations from a re-analysis of the deposited data

How the results depend on the processing

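Monocytes against macrophages gave 573 higher and 568 lower genes, and kept counts within 1.5 times of these with DESeq2, other Ly6c2, C1q, depth and mitochondrial limits, without high doublet scores, and in split counts. Without the replicate block the counts were 168 and 157, with only the 2 classes in the fit 1328 and 1333, after free RNA subtraction (10%) 315 and 314, with cells thinned to 1000 UMIs 136 and 173, and without a filter the lower genes were 1017. Against cDC2 the main counts of 481 and 526 became 865 and 833 without a filter, 153 and 205 without the replicate block, 248 and 296 after free RNA subtraction and 89 and 68 after thinning, and DESeq2 called 800 lower genes. Against neutrophils 1343 and 1601 became 841 and 830 after thinning, 838 higher genes with only the 2 classes, and 966 lower genes in split counts; at least 3000 UMIs left too few neutrophils for a value. Thinning left 5394 genes tested; the cause of the other shifts was not tested. Among named genes the sign turned for Ffar2 against macrophages (-1.64) and Ndrg1 against cDC2 (0.0441) after thinning, for Gas6 against neutrophils (0.13) after thinning, for Gbp4 against macrophages without replicate 3 (-0.26) and for Igkc against neutrophils without replicate 1 (2.82, and -7.38 without replicate 3). Named calls lost without the block numbered 33 of the genes named against macrophages, 30 against cDC2 and 13 against neutrophils. After free RNA subtraction, in the same order, 20, 20 and 12 named calls were lost. Thinning lost 12, 29 and 3, and DESeq2 did not make 8, 2 and 9. The mean share of monocytes was 2.46% and ranged from 1.14% to 3.79% when either tumour was left out. The mean share on the ZC1 side was 76.2%, from 56.1% to 96.4%. It joins unlike cuts, as the median ratio was 0.475 in replicate 1 and 0.229 in replicate 3. Leaving out a tumour gives folds but no counts of calls. The planned test of monocytes of the ZC1 side against the ZC5 side was not run, because replicate 1 held 2 monocytes on the ZC5 side and each sum needed at least 20.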
